A study of Homo sapiens with 9 samples.

Results

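The genes described here are 6 members of the aryl hydrocarbon receptor pathway, AHR, ARNT, AHRR, TIPARP, CYP1B1 and CYP1A1, out of 58299 genes in a table of read counts from AC16 cells. They were chosen by name, through the Ensembl identifiers of their symbols, with earlier results of these data known, and the rule that selects them uses no measured value. AC16 is an established human line obtained by fusing adult ventricular heart cells with fibroblasts transformed by SV40. The 9 libraries fell into 3 groups of 3: cells given CDDO-Me at 100 nM over 72 h, cells given CDDO-Me at 100 nM over 24 h, and vehicle cells given 0.1% DMSO over 72 h. CDDO-Me, or bardoxolone methyl, is a synthetic triterpenoid that activates the transcription factor NRF2. A vehicle group of 24 h was not analysed here, so culture time and treatment cannot be told apart in the comparison of 24 h of CDDO-Me with DMSO. The labels do not say whether the libraries of a group came from separate cultures, and the p-values measure the spread between these libraries, which may be technical.

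The aryl hydrocarbon receptor, encoded by AHR, is a transcription factor of the bHLH-PAS family that waits in the cytosol with HSP90 chaperones. When it binds a ligand, such as a dioxin, a polycyclic aromatic hydrocarbon or a tryptophan metabolite, it enters the nucleus, pairs with ARNT and binds DNA elements whose core reads GCGTG. Classical target genes are CYP1A1 and CYP1B1, whose cytochrome P450 enzymes oxidize aromatic compounds and estrogens, and the feedback genes AHRR and TIPARP. AHRR is a related protein that competes for ARNT, and TIPARP is a mono-ADP-ribosyltransferase that modifies the receptor and lowers its activity.

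In the deposited table (GRCh38) AHR (ENSG00000106546) lies on the plus strand at chr7:16916359-17346152 and ARNT (ENSG00000143437) on the minus strand at chr1:150809705-150876768. AHRR (ENSG00000063438) lies on the plus strand at chr5:304176-438291 and TIPARP (ENSG00000163659) on the plus strand at chr3:156673235-156706770. CYP1B1 (ENSG00000138061) lies on the minus strand at chr2:38066973-38109902 and CYP1A1 (ENSG00000140465) on the minus strand at chr15:74719542-74725610. Reads were counted over all exons of each gene.

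The GCGTG core was searched on both strands in the 250 bases before each RefSeq start site (GRCh38.p14) of the members. At least 1 window of CYP1A1, AHRR and TIPARP held it, and the windows of AHR and ARNT held none. CYP1B1 was not searched. Of 35116 RefSeq promoter windows of this length, 32.2% hold the core, so a match is a description of these letters only. The windows below are those of the target genes, 1 start site per gene, read from 5′ to 3′ on the strand of the gene. Capitals mark the core, which reads CACGC where it lies on the opposite strand.
CYP1A1, chr15:74725529-74725778, minus strand: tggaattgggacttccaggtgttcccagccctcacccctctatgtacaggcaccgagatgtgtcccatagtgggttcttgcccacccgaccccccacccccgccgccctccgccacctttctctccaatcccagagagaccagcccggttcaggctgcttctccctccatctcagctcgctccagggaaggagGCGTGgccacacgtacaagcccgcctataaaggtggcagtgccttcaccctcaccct
AHRR, chr5:321464-321713, plus strand: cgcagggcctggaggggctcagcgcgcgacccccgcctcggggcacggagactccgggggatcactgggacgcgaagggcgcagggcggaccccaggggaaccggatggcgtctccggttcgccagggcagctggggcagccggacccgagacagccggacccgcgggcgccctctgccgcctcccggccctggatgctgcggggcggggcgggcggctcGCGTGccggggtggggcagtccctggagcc
TIPARP, chr3:156674340-156674589, plus strand: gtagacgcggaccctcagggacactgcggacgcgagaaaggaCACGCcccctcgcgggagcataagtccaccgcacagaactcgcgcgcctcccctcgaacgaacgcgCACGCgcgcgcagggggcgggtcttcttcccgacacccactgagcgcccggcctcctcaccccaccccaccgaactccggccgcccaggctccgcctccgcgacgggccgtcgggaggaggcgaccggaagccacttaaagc
The CYP1A1 window holds the core in 1 place on the strand of the gene, the AHRR window in 1 place on that strand, and the TIPARP window in 2 places, both on the opposite strand. A further AHRR start site had 2 matches, and 2 further TIPARP start sites had 0. The antioxidant response element, to which NRF2 binds, was searched as TGACNNNGC on both strands. It occurred in the ARNT window and in none of the other windows of the members, against 10.9% of all windows.

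Total counts per library ran from 16898977 to 27910031, and 3 counts, the limit that a count of 0 allows, equal 0.107 to 0.178 CPM, for counting error only. Levels are in CPM, read counts brought to a common library total after a TMM correction of library size. Replicate 3 of CDDO-Me 24 h lay at a leading log2 distance of 1.95 and 1.91 from the others of its group, which were 1.21 from each other, and was nearer to the 3 libraries of CDDO-Me 72 h (1.58 to 1.60). Replicate 1 of DMSO lay at 1.54 and 1.63 from the others of its group, which were 1.31 from each other. These libraries are said below to stand apart. Results that rest on them are given with and without them. The known NRF2 target NQO1, a quinone reductase, was high in treated cells. It averaged 3349 ± 40.5 CPM at 72 h, 1879 ± 256 CPM at 24 h and 449.2 ± 40.3 CPM in DMSO (SD, n = 3 each). Of 12 cardiomyocyte markers, GATA4 alone was at 1 CPM or more in all 9 libraries, and MYH6, MYH7, NKX2-5, RYR2 and MYL2 had 0 counts in all of them. All 8 fibroblast markers reached 1 CPM in every library, while 4 of 5 smooth muscle, 3 of 5 epithelial, 1 of 5 endothelial and 0 of 5 immune markers did. The summed CPM of a list stood lower at 72 h than in DMSO, without overlap, for 4 of the 6 lists. The epithelial sum was 128 to 137 CPM at 72 h, 154 to 221 CPM at 24 h and 225 to 269 CPM in DMSO, and the endothelial sum 7.75 to 8.28, 10.9 to 12.3 and 13.3 to 15.6 CPM. The smooth muscle sum was 213 to 232 CPM at 72 h, 180.4 to 269.8 CPM at 24 h and 263 to 434 CPM in DMSO, and the cardiomyocyte sum 20.8 to 22.4, 18.5 to 24.6 and 26.1 to 27.0 CPM. The fibroblast sum stood higher at 72 h, at 17240 to 17750 CPM, against 12570 to 18990 CPM at 24 h and 15060 to 16400 CPM in DMSO, and the immune sum was 1.70 to 2.23, 1.98 to 3.50 and 2.12 to 3.44 CPM. Their part in the results at 72 h was not tested. These markers do not bear out the cardiomyocyte of the study title, and the cells are called by the name of the line.

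CYP1B1 was the member that rose, and it rose at 72 h. It encodes a cytochrome P450 of tissues outside the liver. Its level was 170.1, 185 and 177 CPM in replicates 1, 2 and 3 of CDDO-Me 72 h, 88.7, 98.3 and 139 CPM in those of CDDO-Me 24 h, and 70.1, 104 and 104 CPM in those of DMSO. All 3 libraries of 72 h stood above the other 6, while the 24 h and DMSO groups overlapped. The means were 177 ± 7.32, 108.7 ± 26.8 and 92.6 ± 19.5 CPM at 72 h, at 24 h and in DMSO (SD, n = 3 each). The level at 72 h was 1.91-fold that in DMSO, a log2 fold change of 0.94 ± 0.18 (SE, 95% interval 0.52 to 1.35), with an adjusted p of 0.0156 by edgeR's quasi-likelihood test and Benjamini-Hochberg adjustment over 14965 genes. All adjusted p-values below come from this test unless another is named, a gene is called at an adjusted p under 0.05, and errors printed with log2 fold changes are SE.

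The call of CYP1B1 at 72 h ended when any 1 of the 3 libraries of CDDO-Me 72 h was left out, at adjusted p of 0.05004, 0.0612 and 0.0580 without replicates 1, 2 and 3. The fold change itself moved little, with a log2 range of 0.77 to 1.03 over all 20 alternative settings. The lowest of these came without both libraries that stood apart (0.77, adjusted p 1.21e-10). Both were picked by their distances in these same data. Without them 17.9% of all tested genes were called at 72 h over DMSO, against 6.02% with all libraries. CYP1B1 passed in 17 of the 20 settings.

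After 24 h CYP1B1 did not differ from DMSO beyond the spread (log2 fold change 0.23 ± 0.18, adjusted p 0.671). Between 72 h and 24 h of CDDO-Me the log2 fold change was 0.70 ± 0.18 (95% interval 0.29 to 1.11), which did not pass (adjusted p 0.135), although the groups did not overlap. The library nearest to the 72 h group was 24 h replicate 3, at 139 CPM. Without it the log2 fold change between the times was 0.92 and passed (adjusted p 0.00313), and that between 24 h and DMSO was 0.01 (adjusted p 0.972). In that fit 12% of all tested genes were called between the times, against 1.02% with all libraries. The difference of CYP1B1 between the times passed in 7 of the 20 settings. Among them were the fit without DMSO replicate 1 (0.70, adjusted p 0.0337) and DESeq2 (0.70, adjusted p 0.00225). In these 1.58% and 2.63% of all tested genes were called between the times. Exons of CYP1B1 share 678 bases, 11.3% of its exon length, with the antisense gene CYP1B1-AS1, which had 32 to 43 counts per library at 72 h, 22 to 48 at 24 h and 15 to 39 in DMSO. Reads of the pair cannot be told apart in this unstranded kit, but CYP1B1 had 1356 to 3809 counts per library.

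CYP1A1, the gene most often used to read out AHR activity, was near the limit of detection in every library. It had 6, 5 and 1 counts in replicates 1, 2 and 3 of CDDO-Me 72 h, 3, 10 and 5 counts in those of CDDO-Me 24 h, and 4, 5 and 8 counts in those of DMSO. The groups overlapped and no library stood clear of the others. Summed over a group, this is 0.206 CPM at 72 h (12 counts, exact Poisson 95% interval 0.107 to 0.360), 0.280 CPM at 24 h (18 counts, 0.166 to 0.443) and 0.287 CPM in DMSO (17 counts, 0.167 to 0.460). These intervals cover counting error only. CYP1A1 did not pass the filter on low counts and was not tested in the main fit. With no filter its adjusted p was 0.879 at 72 h and 1 at 24 h, both against DMSO, and 0.898 between the times, so no difference was detected. The log2 fold change over DMSO in that fit was −0.46 ± 0.81 at 72 h and −0.01 ± 0.76 at 24 h. Small changes cannot be resolved at this depth.

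**Figure D1:**
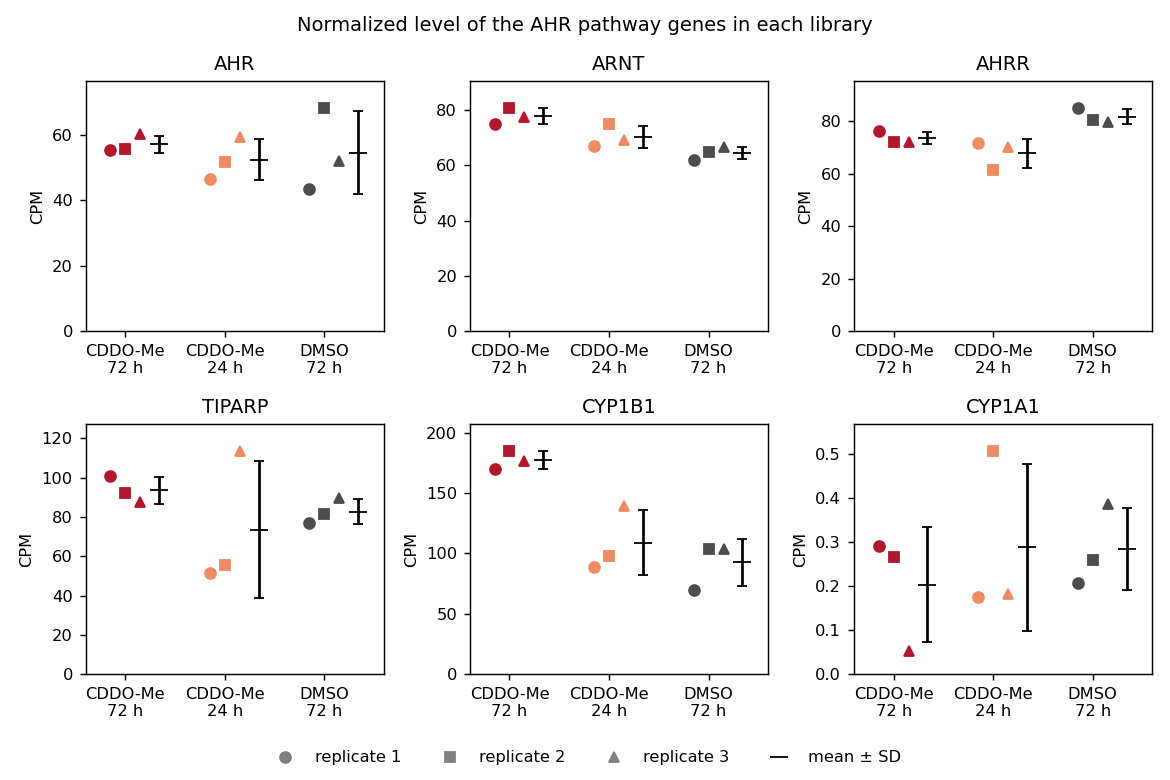
Level of each of the 6 genes in each library, in CPM on a linear axis from 0. Columns are CDDO-Me 72 h, CDDO-Me 24 h and DMSO 72 h, symbols mark the replicates, and the bar beside them is the mean with the SD. CYP1B1 at 72 h lies at 170.1 to 185 CPM, above the 6 other libraries, CYP1A1 stays under 1 CPM, and TIPARP has 1 library of 24 h at 114 CPM, above the other 8.

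The feedback gene TIPARP differed among the libraries of 1 group more than between groups. Its level was 101, 92.4 and 87.5 CPM in replicates 1, 2 and 3 of CDDO-Me 72 h, 51.6, 55.4 and 114 CPM in those of CDDO-Me 24 h, and 77.0, 81.5 and 89.8 CPM in those of DMSO. At 24 h, replicates 1 and 2 were the lowest of the 9 libraries and replicate 3 was the highest. The log2 fold change of 24 h over DMSO was −0.16 ± 0.28 (95% interval −0.81 to 0.48, adjusted p 0.869). Without 24 h replicate 3 it was −0.63 ± 0.09 and passed (adjusted p 1.73e-04), and without DMSO replicate 1 as well it was −0.68 (adjusted p 3.20e-07). In these fits 10.8% and 22.8% of all tested genes were called at 24 h over DMSO, against 2.15% with all libraries. Without 24 h replicate 1 the log2 fold change of TIPARP was 0.03, and without 24 h replicate 2 it was 0.00. The direction of TIPARP at 24 h thus rested on which library of that group was kept.

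At 72 h TIPARP did not pass against DMSO (log2 fold change 0.18 ± 0.28, adjusted p 0.801), nor did it in any of the 20 alternative settings (lowest adjusted p 0.140). Between 72 h and 24 h its log2 fold change was 0.34 ± 0.28 (adjusted p 0.666), and 0.81 without 24 h replicate 3 (adjusted p 9.05e-06). In that fit 12% of all tested genes were called between the times, against 1.02% with all libraries. Other measures moved with 24 h replicate 3. HMOX1, heme oxygenase 1 and an NRF2 target, stood at 747 to 880.1 CPM at 72 h, at 145.8, 145.8 and 645 CPM in replicates 1, 2 and 3 of 24 h, and at 22.1 to 25.8 CPM in DMSO. A list of 7 nuclear-retained and histone transcripts, used to follow RNA quality, had a median log2 level relative to the DMSO mean of 0.25, 0.41 and −0.60 in these 3 libraries of 24 h. That median was −0.10, −0.49 and −0.48 in replicates 1, 2 and 3 of 72 h, and 0.32, −0.05 and −0.13 in those of DMSO. The summed level of the list was 446 to 474 CPM at 72 h, 409 to 765 CPM at 24 h and 499 to 574 CPM in DMSO, with 6 of its 7 genes at 1 CPM or more in every library. The part of these measures in the TIPARP values was not tested.

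AHRR, the receptor's repressor, had lower values in both treated groups than in DMSO. Its level was 76.3, 72.3 and 72.3 CPM in replicates 1, 2 and 3 of CDDO-Me 72 h, 71.6, 61.5 and 70.4 CPM in those of CDDO-Me 24 h, and 85.2, 80.6 and 79.8 CPM in those of DMSO. No treated library reached the lowest DMSO library, and the 2 treated groups did not overlap either. The log2 fold change was −0.15 ± 0.08 at 72 h (adjusted p 0.331) and −0.27 ± 0.08 at 24 h (95% interval −0.44 to −0.10, adjusted p 0.116), and neither passed. At 24 h it passed without 24 h replicate 3 (−0.30, adjusted p 0.0231), without both libraries that stood apart (−0.27, adjusted p 0.0119) and in limma-voom with sample weights (adjusted p 0.0174). In these settings 10.8%, 22.8% and 11.1% of all tested genes were called at 24 h over DMSO. Of the exon bases of AHRR, 244 (3.18%) also belong to PDCD6, an apoptosis gene on the same strand with 670 to 1194 counts per library.

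ARNT, the partner of the receptor and also of the hypoxia factor HIF1A, had the highest values at 72 h. Its level was 75.0, 80.9 and 77.7 CPM in replicates 1, 2 and 3 of CDDO-Me 72 h, 67.1, 74.9 and 69.2 CPM in those of CDDO-Me 24 h, and 62.1, 64.9 and 66.7 CPM in those of DMSO. The 3 groups did not overlap, with 24 h between the others, though 24 h replicate 2 and the lowest library of 72 h were almost level. The log2 fold change at 72 h over DMSO was 0.27 ± 0.08 (95% interval 0.10 to 0.43, 1.21-fold) with an adjusted p of 0.0541, just outside the threshold. It passed in 6 of 20 alternative settings, among them the fit without 24 h replicate 3 (0.27, adjusted p 0.0148) and DESeq2 (adjusted p 0.0282). In these settings 12.9% and 8.05% of all tested genes were called at 72 h over DMSO, against 6.02% in the main fit. Without each library of DMSO or of 72 h in turn ARNT did not pass (adjusted p 0.0716 to 0.239). The log2 fold change was 0.12 ± 0.08 at 24 h over DMSO (adjusted p 0.555) and 0.14 ± 0.08 between 72 h and 24 h (adjusted p 0.442).

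The transcript of the receptor itself did not pass in any comparison. AHR stood at 55.5, 55.7 and 60.2 CPM in replicates 1, 2 and 3 of CDDO-Me 72 h, 46.4, 51.8 and 59.2 CPM in those of CDDO-Me 24 h, and 43.6, 68.2 and 52.0 CPM in those of DMSO. The DMSO libraries alone spanned the values of both treated groups. The log2 fold change was 0.07 ± 0.14 at 72 h (95% interval −0.23 to 0.36, adjusted p 0.859) and −0.05 ± 0.14 at 24 h (95% interval −0.35 to 0.24, adjusted p 0.915), and 0.12 ± 0.14 between the times (adjusted p 0.767). These intervals allow for changes of up to 1.29-fold upward at 72 h and 0.783-fold downward at 24 h. Without both libraries that stood apart AHR was lower at 24 h (−0.29, adjusted p 0.0301). In that setting 22.8% of all 15199 tested genes were called at 24 h over DMSO, 10.8% of them all as lower. With all libraries 2.15% were called. An annotated gene on the same strand, AC019117.2, shares 2373 bases with AHR, 29.4% of the exon length of AHR, and had 0 counts in all 9 libraries. How reads in the shared bases were assigned is not given in the sources used here, and their part in the level of AHR relative to other genes was not tested.

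**Figure D2:**
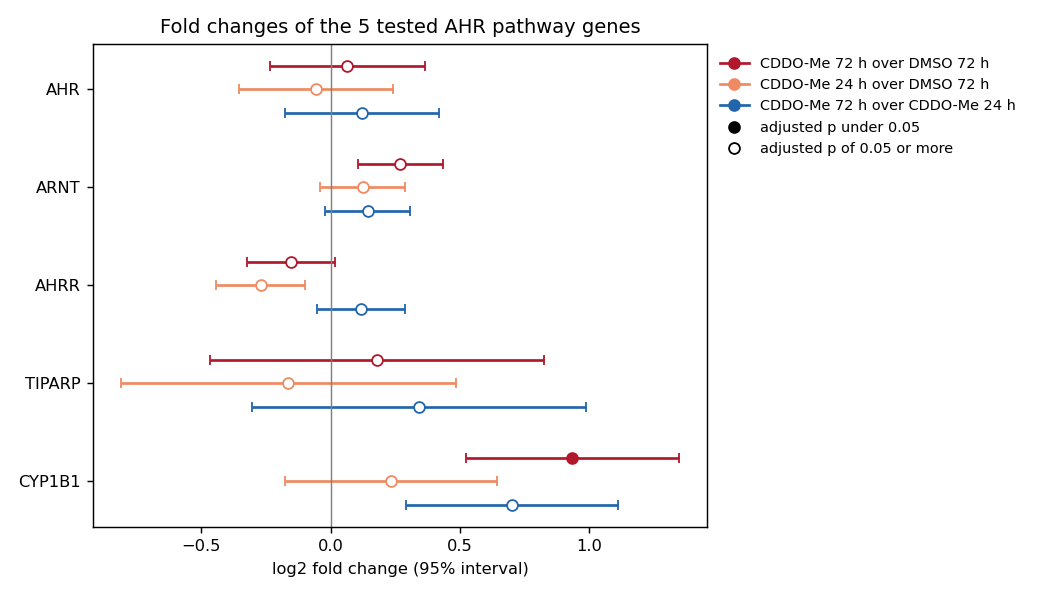
Log2 fold changes with 95% intervals of the 5 genes that passed the filter on low counts, for CDDO-Me 72 h over DMSO 72 h, CDDO-Me 24 h over DMSO 72 h, and CDDO-Me 72 h over CDDO-Me 24 h. A filled point has an adjusted p under 0.05, and the single filled point is CYP1B1 at 72 h over DMSO (0.94). The intervals of TIPARP are the widest, from −0.81 to 0.48 at 24 h over DMSO.

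Across the pathway, 5 of the 6 genes passed the filter. At 72 h against DMSO 1 of 5 was called, against 6.02% of all tested genes, and 3 of 5 had groups that did not overlap, against 30.7% of all tested genes. At 24 h against DMSO 0 of 5 were called, against 2.15% of all, and 2 of 5 did not overlap, against 13.5%. Between 72 h and 24 h 0 of 5 were called, against 1.02%, and 3 of 5 did not overlap, against 21%. In all tested genes the counts called were 901, 321 and 152 in these comparisons, and 2779, 1917 and 1968 at an unadjusted p under 0.05. DESeq2 called 2, 0 and 1 of the members, against 8.05%, 3.65% and 2.63% of all tested genes. The median log2 fold change of the 5 members was 0.18, −0.05 and 0.14, against 0.00, 0.01 and −0.01 over all genes. The comparisons with DMSO share the same 3 DMSO libraries.

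Levels of different genes were compared per kilobase of exon. At 72 h the order was CYP1B1 (29.5 ± 1.22 CPM per kilobase), TIPARP (18.6 ± 1.37), ARNT (11.9 ± 0.454), AHRR (9.59 ± 0.303), AHR (7.07 ± 0.328) and CYP1A1 (0.0591 ± 0.0379; SD, n = 3 each), with no overlap between neighbours. At 24 h CYP1B1 (18.1 ± 4.46) and TIPARP (14.6 ± 6.88) overlapped, as did TIPARP and ARNT (10.8 ± 0.615), while AHRR (8.83 ± 0.714) and AHR (6.49 ± 0.793) stood apart from their neighbours. In DMSO TIPARP (16.4 ± 1.28) and CYP1B1 (15.4 ± 3.23) overlapped. Below them AHRR (10.7 ± 0.379), ARNT (9.91 ± 0.351) and AHR (6.75 ± 1.55) did not overlap with each other. CYP1B1 and TIPARP had the highest means in all 3 groups. AHRR stood above ARNT in DMSO and below it in both treated groups, a change of rank and not a tested difference. The length of AHR includes the 29.4% shared with AC019117.2. How reads there were assigned is not known, and its effect on the rank of AHR was not tested.

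**Figure D3:**
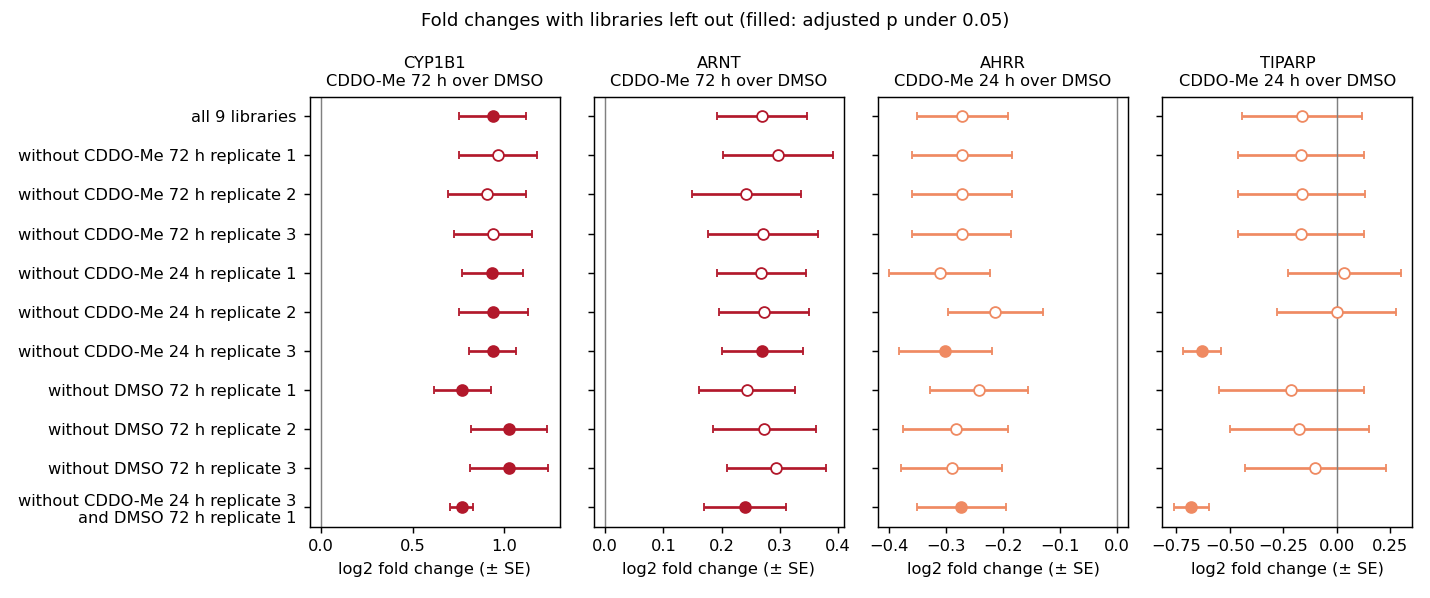
Log2 fold changes (± SE) of CYP1B1 and ARNT at CDDO-Me 72 h over DMSO, and of AHRR and TIPARP at CDDO-Me 24 h over DMSO, with all 9 libraries, without each library in turn, and without both libraries that stood apart. Filled points have an adjusted p under 0.05, and each panel has its own scale. TIPARP moves to −0.63 without CDDO-Me 24 h replicate 3 and to 0.03 without replicate 1 of that group, while CYP1B1 stays between 0.77 and 1.03.

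The genes whose pattern over the 9 libraries was most like that of each member were named by Pearson's r of log2 CPM, among genes with an average log2 CPM of at least 3. These values are descriptions over 9 libraries of 3 groups. For CYP1B1 they were UBE2H (0.99), STK32B (0.97) and PDE4DIP (0.97), and for TIPARP MTMR2 (0.99), PHF20L1 (0.98) and DIAPH3 (0.98). AHRR was most like TFAP2A (0.95), NF2 (0.94) and ARPC4 (0.94), ARNT like CNOT8 (0.96), LURAP1L (0.95) and PMP22 (0.94), and AHR like ZZZ3 (0.92) and PIGX (0.92).

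Around the members, 10 lists held 82 distinct genes of the receptor's complex, partners, coregulators, targets, ligand synthesis and related enzymes, of which 66 were tested. At 72 h against DMSO 7 of the 66 rose and 4 fell, at 24 h 2 rose and 3 fell, and between 72 h and 24 h 1 was higher at 72 h and 2 were lower. Over all tested genes at these comparisons 2.89%, 0.969% and 0.448% were called higher and 3.13%, 1.18% and 0.568% lower. Of the 7 that rose at 72 h, 4 belong to the list of NRF2 targets that checks the treatment: NQO1, HMOX1 (log2 fold change 5.10 ± 0.72, adjusted p 0.0106), GCLM (1.95 ± 0.32, adjusted p 0.0139) and TXNRD1. Of the 5 genes in that list, NQO1 alone was called at 24 h over DMSO. The call of GCLM, a subunit gene of glutathione synthesis, ended without DMSO replicate 1 and without each of the 3 libraries of 72 h, at adjusted p of up to 0.0552. Genes named below as called without 24 h replicate 3, and TXNRD1, were chosen after their values were seen. In the fit without that library 12.9% of all genes were called at 72 h over DMSO, and 10.8% at 24 h over DMSO. Between 72 h and 24 h this share was 12%, against 1.02% with all libraries.

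The cytosolic complex and the turnover machinery of the receptor gave no call. Among 4 tested genes of the complex HSP90AA1, an HSP90 chaperone, had the highest CPM (not corrected for length), at 2546 ± 22.9 CPM at 72 h, 2202 ± 325 CPM at 24 h and 2226 ± 154 CPM in DMSO. Its log2 fold changes over DMSO were 0.19 ± 0.10 at 72 h (adjusted p 0.325) and −0.02 ± 0.10 at 24 h (adjusted p 0.973). Among 4 tested turnover genes DDB1, a ubiquitin ligase adaptor, had the highest CPM, at 439 ± 4.12, 438.5 ± 20.6 and 465 ± 25.4 CPM at 72 h, at 24 h and in DMSO. HSP90AA1 at 72 h did not overlap with DMSO, and passed there in limma-voom with sample weights (0.22, adjusted p 0.00887) and without both libraries that stood apart (0.19, adjusted p 0.0263). In these settings 17.3% and 17.9% of all tested genes were called at 72 h over DMSO. The groups of DDB1 overlapped at both times. Without 24 h replicate 3, the ubiquitin ligase gene STUB1 was higher (log2 fold change 0.33, adjusted p 0.0199) at 72 h over DMSO.

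Of 10 tested ARNT relatives and bHLH-PAS partners 2 fell at 72 h. ARNT2, the paralog of ARNT known from neurons, stood at 41.3, 49.9 and 46.5 CPM in replicates 1, 2 and 3 of CDDO-Me 72 h, 68.2, 64.2 and 69.1 CPM in those of CDDO-Me 24 h, and 75.2, 85.8 and 89.4 CPM in those of DMSO. The 3 groups were fully apart, with 72 h the lowest. Its log2 fold change was −0.86 ± 0.09 at 72 h (adjusted p 5.91e-05) and −0.31 ± 0.09 at 24 h (adjusted p 0.111), and between 72 h and 24 h it was −0.55 ± 0.09 (adjusted p 0.0101). The last call ended without 72 h replicate 1 (0.104) or 3 (0.0780). ARNT2 thus fell at 72 h while the ARNT values were the highest there.

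NPAS2, a circadian partner of BMAL1, averaged 12.4 ± 1.47 CPM at 72 h, 17.3 ± 1.38 CPM at 24 h and 19.1 ± 0.955 CPM in DMSO. It fell at 72 h (−0.62 ± 0.12, adjusted p 0.00674), and this call ended without 72 h replicate 2 (0.0561). At 24 h none of the 10 passed, and without 24 h replicate 3 ARNT2 (−0.34, adjusted p 0.0272) and HIF1A (−0.28, adjusted p 0.0287) did, while BMAL2 passed at 72 h (0.34, adjusted p 0.00235). That with the highest CPM, the hypoxia factor HIF1A, stood at 362 ± 33.3 CPM at 24 h, against 419 ± 39.9 CPM in DMSO (−0.21 ± 0.09, adjusted p 0.324).

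Of 9 tested coregulators 1 fell at 24 h and 0 were called at 72 h. That with the highest CPM, the chromatin remodeller SMARCA4, averaged 273 ± 4.99 CPM at 72 h, 281 ± 21.8 CPM at 24 h and 287 ± 22.4 CPM in DMSO, and did not pass at 72 h (−0.07 ± 0.08, adjusted p 0.701). NRIP1, a corepressor that also binds the receptor, averaged 54.3 ± 2.06 CPM at 72 h, 51.6 ± 5.37 CPM at 24 h and 73.8 ± 14.8 CPM in DMSO. It fell at 24 h (−0.51 ± 0.13, adjusted p 0.0495), at the edge of the threshold, and this call ended in 13 of 20 settings, at adjusted p of up to 0.265. At 72 h it had a log2 fold change of −0.44 (adjusted p 0.0533), which passed without 24 h replicate 3 (adjusted p 0.0172), as did that of the acetyltransferase gene CREBBP (−0.20, adjusted p 0.0490).

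The other drug metabolism genes known as AHR targets were mostly not expressed at a testable level. Of 9 genes in this list, which also counts NFE2L2, the gene of NRF2, 3 were tested. NQO1, which is a target of both AHR and NRF2, rose at both times (2.90 ± 0.11 at 72 h, adjusted p 1.26e-09, and 2.06 ± 0.10 at 24 h, adjusted p 9.52e-08). CYP1A2, the paralog of CYP1A1, had 2 counts in all 9 libraries together. UGT1A6 had 1 count and UGT1A1 had 0 counts; these 2 genes share exons. ALDH3A1, an aldehyde dehydrogenase, had 9, 10 and 5 counts in replicates 1, 2 and 3 of CDDO-Me 72 h, 1, 6 and 7 counts in those of CDDO-Me 24 h, and 0, 2 and 2 counts in those of DMSO. Its counts were too few for the filter.

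Of 10 tested genes among the other AHR targets 2 fell at each time and none rose. IL1B, the cytokine interleukin 1 beta, averaged 2.55 ± 0.452 CPM at 72 h, 3.55 ± 1.43 CPM at 24 h and 8.44 ± 1.82 CPM in DMSO. It fell at 72 h (−1.72 ± 0.27, adjusted p 0.00148) and at 24 h (−1.27 ± 0.27, adjusted p 0.0198). The call at 24 h ended in 4 settings, among them the fits without 24 h replicate 2 and without DMSO replicate 2 or 3, at adjusted p of up to 0.103. SLC7A5, a transporter of large neutral amino acids, stood at 762 to 816 CPM at 72 h, 983 to 1208.5 CPM at 24 h and 1012 to 1190.0 CPM in DMSO, and fell at 72 h (−0.51 ± 0.09, adjusted p 0.00331).

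NEDD9, a scaffold protein of focal adhesions, averaged 19.7 ± 0.251 CPM at 72 h, 15.2 ± 3.68 CPM at 24 h and 27.0 ± 3.51 CPM in DMSO. It fell at 24 h (−0.82 ± 0.15, adjusted p 0.00941), and had a log2 fold change of −0.46 at 72 h (adjusted p 0.0930), which passed in 6 of 20 settings, among them the fit without 24 h replicate 3 (−0.45, adjusted p 0.00563). The call at 24 h ended in 3 settings, among them the fits without 24 h replicate 2 and without DMSO replicate 3, at adjusted p of up to 0.0558. SERPINB2, a protease inhibitor, and EREG, a ligand of the EGF receptor, did not pass with all libraries. SERPINB2 stood at 22.0, 23.9 and 30.0 CPM in replicates 1, 2 and 3 of CDDO-Me 72 h, 4.66, 6.58 and 48.2 CPM in those of CDDO-Me 24 h, and 21.3, 12.7 and 14.5 CPM in those of DMSO, so that 24 h held both the lowest values and the highest. Without 24 h replicate 3, SERPINB2 fell at 24 h (−1.51, adjusted p 0.00283, against 0.33 ± 0.85 with all 9 libraries) and rose at 72 h (0.65, adjusted p 0.0448), and EREG rose at 72 h (2.12, adjusted p 0.00478).

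**Figure D4:**
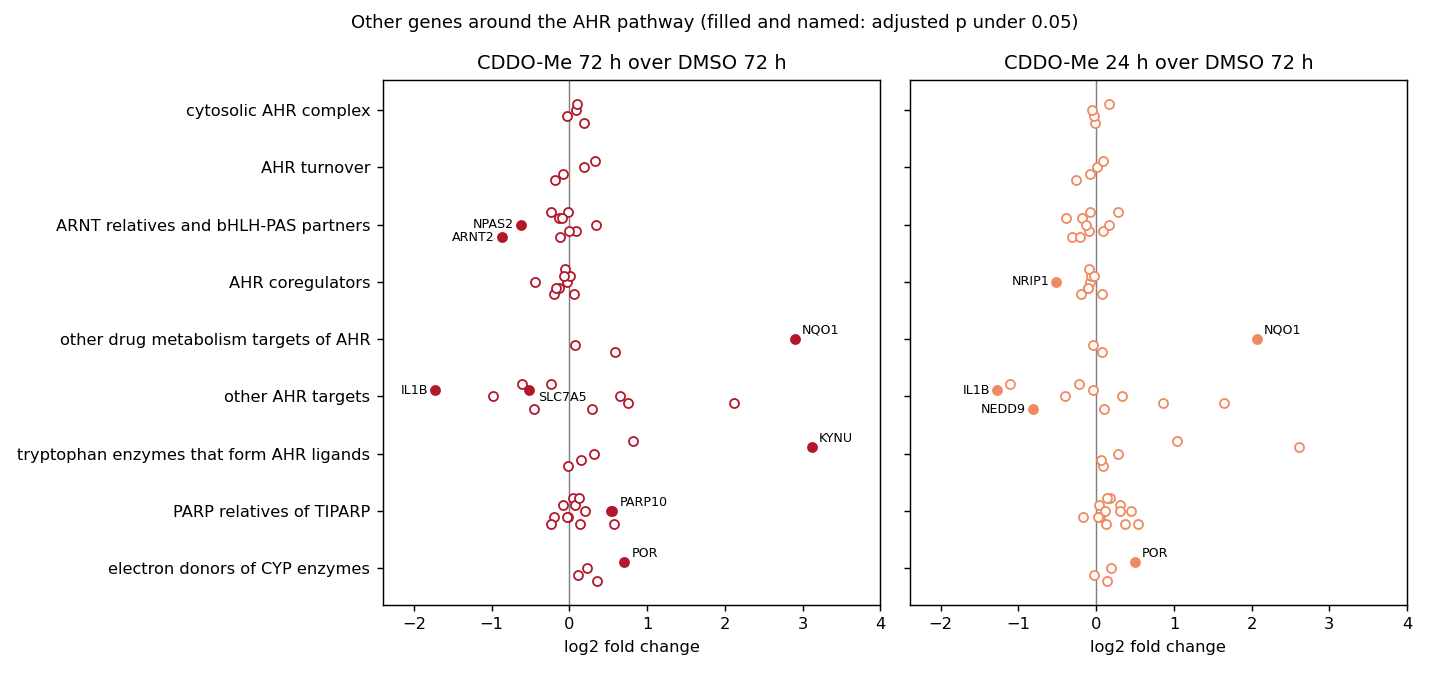
Log2 fold changes of the tested genes of 9 lists around the AHR pathway, for CDDO-Me 72 h over DMSO 72 h and CDDO-Me 24 h over DMSO 72 h. Each point is a gene, shifted vertically for legibility, and filled, named points have an adjusted p under 0.05. NQO1 (2.90) and KYNU (3.12) lie far right at 72 h, IL1B (−1.72) far left, and the complex and turnover lists hold no filled point.

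Of 9 genes of tryptophan breakdown, a source of AHR ligands, 5 were tested and 1 rose at 72 h. KYNU, kynureninase, was low throughout, at 1.60, 2.55 and 2.62 CPM in replicates 1, 2 and 3 of CDDO-Me 72 h, 0.582, 0.760 and 3.18 CPM in those of CDDO-Me 24 h, and 0.207, 0.312 and 0.242 CPM in those of DMSO. All treated libraries stood above all DMSO libraries, and 24 h replicate 3 was the highest of the 9. Its log2 fold change was 3.12 ± 0.64 at 72 h (adjusted p 0.0109) and 2.61 ± 0.65 at 24 h (adjusted p 0.0602). At 24 h it was 1.39 (adjusted p 0.0881) in the fit without 24 h replicate 3, where that of 72 h over 24 h, 0.51 with all libraries (adjusted p 0.712), came to 1.73 and passed (adjusted p 0.00823). At 24 h KYNU passed in 5 of 20 settings, among them DESeq2 (adjusted p 0.00301). Its call at 72 h ended without DMSO replicate 1 (0.0540) or 3 (0.05002). The dioxygenase genes IDO1 and IDO2, which start this route outside the liver, had 1 and 0 counts over all 9 libraries. The dioxygenase gene TDO2, also of this list, averaged 1.16 ± 0.201 CPM at 72 h, 1.35 ± 0.359 CPM at 24 h and 0.660 ± 0.241 CPM in DMSO. Neither treated group of TDO2 overlapped with DMSO. It did not pass at 72 h (0.81 ± 0.38, adjusted p 0.270) or at 24 h (1.04 ± 0.37, adjusted p 0.220). KYAT3, an aminotransferase with the highest CPM of the list, did not pass at 24 h (0.28 ± 0.14, adjusted p 0.421).

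Of 13 tested genes in the list of PARP relatives of TIPARP, which also counts the macrodomain gene MACROD1, 1 rose at 72 h. At 24 h 0 were called. PARP10, another mono-ADP-ribosyltransferase, averaged 60.3 ± 4.39 CPM at 72 h, 56.3 ± 10.3 CPM at 24 h and 41.1 ± 5.82 CPM in DMSO. It rose at 72 h (0.55 ± 0.13, adjusted p 0.0255). Leaving out DMSO replicate 1 or 3, or each library of 72 h in turn, ended the call, at adjusted p of up to 0.126. Without 24 h replicate 3, 4 of the 13 were higher at 24 h than in DMSO, the setting in which TIPARP was lower: PARP10 (0.60, adjusted p 0.00101), PARP14 (0.73, adjusted p 0.0319), PARP3 (0.40, adjusted p 0.0302) and PARP6 (0.48, adjusted p 0.0324). In that setting 5.71% of all 15311 tested genes were called higher, against 0.969% with all libraries. PARP1, a DNA repair enzyme with the highest CPM of the list, did not pass at either time (log2 fold change −0.02 ± 0.07 at 72 h, adjusted p 0.917, and 0.04 ± 0.07 at 24 h, adjusted p 0.854).

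Of 4 tested genes listed as electron donors of cytochrome P450 enzymes 1 rose at both times. POR, the reductase that passes electrons to CYP1A1, CYP1B1 and the other microsomal P450 enzymes, stood at 106.3, 106.3 and 109 CPM in replicates 1, 2 and 3 of CDDO-Me 72 h, 91.2, 91.1 and 95.2 CPM in those of CDDO-Me 24 h, and 70.7, 64.7 and 61.7 CPM in those of DMSO. The 3 groups were fully apart, in the order of treatment time. Its log2 fold change was 0.71 ± 0.07 at 72 h (adjusted p 5.32e-05) and 0.49 ± 0.07 at 24 h (adjusted p 0.00245), and neither call ended in any of the 20 alternative settings. Between 72 h and 24 h it was 0.21 ± 0.07 (adjusted p 0.225). Without 24 h replicate 3, 3 of the 4 listed genes rose at 72 h over DMSO. They were POR, CYB5A, a cytochrome b5 (0.36, adjusted p 0.0147), and PGRMC1, a heme-binding protein listed with the donors (0.22, adjusted p 0.0149). Of all genes 6.26% were called higher in that setting, against 2.89% with all libraries.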

How the data were processed

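The authors deposited whole-number read counts per Ensembl gene for 9 libraries, with no normalization. Libraries were made from polyadenylated RNA with a kit that does not keep strand, per the labels' protocols. Alignment and counting tools in the submitters' processing notes are STAR, SAMtools, Subread and featureCounts, with GRCh38 (hg38) as the build. Not given in the sources used here are the annotation release and how strand and multiply mapped reads were handled. Some titles have CDDO where the treatment label has CDDO-Me; CDDO-Me was used throughout. Of 58299 gene identifiers, 57717 matched a symbol. No 2 columns were identical, and replicates differed by more than sampling noise.

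From the counts, genes were filtered with filterByExpr, leaving 14965 genes with 99.87 to 99.9% of counts, and tested with edgeR 4.0.16 (quasi-likelihood, robust, TMM; R 4.3.3) in 1 fit of 3 group means, with 6 residual degrees of freedom and Benjamini-Hochberg adjustment. The SE was obtained by dividing the log2 fold change by the root of F. The script was tested on simulated data. Alternatives were other scalings and filters, DESeq2 1.42.0, limma-voom (limma 3.58.1), other samples in the fit, a replicate block and leaving out libraries. Named genes were the 6 members, genes overlapping their exons, up to 3 called genes per list and comparison with DMSO (or, with none, the gene with the highest CPM), up to 3 like genes per member, and NQO1 and HMOX1. Genes outside that rule are markers or were named after their values were seen. The members and lists were chosen with earlier results of these data known. A few genes of the lists and of the rule are not reported here, and counts over the lists leave them out. Promoter sequences are from RefSeq.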

Additional observations from a re-analysis of the deposited data

Results flagged for a closer look

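Of the genes around the pathway, 3 differed between 72 h and 24 h of CDDO-Me by edgeR's quasi-likelihood test. Because both times are set against the same DMSO libraries, this contrast is also the test of whether the changes from DMSO at the 2 times differed. The log2 fold change of 72 h over 24 h was −0.55 for ARNT2 (adjusted p 0.0101), −0.47 for SLC7A5 (adjusted p 0.0219) and 0.83 for NQO1 (adjusted p 9.92e-04). The call of SLC7A5 ended without 24 h replicate 1 or without each library of 72 h in turn (adjusted p up to 0.181), and that of ARNT2 without 72 h replicate 1 or 3 (up to 0.104). No member of the AHR pathway passed in this contrast.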

How the results depend on the processing

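No member, and no gene picked from the lists by the rule, reversed its direction where it was called in the 20 alternative settings. Genes named after their values were seen are not in this check or in the counts that follow. Among them SERPINB2 at 24 h over DMSO changed sign, from 0.33 with all libraries to −1.51 without 24 h replicate 3. Among the values of the members 274 kept their side of the threshold, 23 became called and 3 lost their call. Among those of the other named genes 967 kept it, 75 became called and 38 lost it. In the order 72 h against DMSO, 24 h against DMSO and 72 h against 24 h, limma-voom with sample weights called 2593, 1656 and 2918 genes and 2, 2 and 2 members. Without both libraries that stood apart these counts were 2724, 3464 and 3471 genes and 2, 3 and 2 members. In other settings that moved a count by over 1.5 times, no filter called 662 genes at 24 h and 507 between the times (with 1 member there), DESeq2 called 546 and 394 (1 member between the times, 2 at 72 h), and a fit of only the 2 groups compared called 1776 at 72 h (2 members) and 100 at 24 h. Leaving out 1 library gave 401 to 1972, 134 to 1657 and 32 to 1843 genes, and 0 to 2 members in each comparison. The highest count of each range came without CDDO-Me 24 h replicate 3. Where a call changed, the cause was not tested. The labels do not say whether libraries with the same replicate number belong together. To look for such pairs, the mean of the group was subtracted from the log2 CPM of each gene, and the remaining deviations were correlated. Deviations of same-numbered libraries of different groups correlated at −0.03 to 0.08, and those of differently numbered ones at −0.11 to 0.04. The deviations of a library did not always correlate best with those of its own number. Such small correlations do not settle whether the numbers mark pairs. The replicate block gave 963, 358 and 219 genes and 2, 0 and 1 members, with ARNT at 72 h (adjusted p 0.0497) and CYP1B1 between the times (0.0155) added, and with KYNU at 24 h (0.0256) and NEDD9 at 72 h (0.0457) among the other named genes. Low counts limit CYP1A1, for which no difference was detected and small changes cannot be resolved at this depth.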
